A study of Mus musculus with 6 samples.

Results

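The genes described here are 45 mouse genes of the interferon response and of class I antigen presentation, taken by symbol from the 55536 genes counted in 6 mRNA sequencing libraries. The list was chosen with earlier results of these data known, so its counts and medians are not those of an independent gene set. The genes were separated by role into 10 interferon signalling genes, 29 antiviral and interferon-stimulated genes and 6 class I presentation genes. The libraries came from CAD cells, a catecholaminergic line of the mouse central nervous system. All samples share this line, which was derived from a male animal of C57BL/6 x DBA/2 background. Simian virus 40 is named as its transforming agent, and whether these cells hold viral sequence was not tested. The 3 undifferentiated libraries were from proliferating cells in medium with 8% serum. For the 3 dexamethasone libraries, cells were treated with the synthetic glucocorticoid dexamethasone (100 µM, 5 days) in 1% serum, so steroid and serum differed together and cannot be told apart. Whether the samples of a group came from separate cultures is not stated, so the spread behind the p-values may be of technical origin.

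Type I interferons bind a receptor made of IFNAR1 and IFNAR2, whose kinases TYK2 and JAK1 activate transcription factors of the STAT family. STAT2 acts with IRF9 in a complex that binds the interferon-stimulated response element (ISRE) before antiviral genes, while interferon gamma acts through the gamma-activated site (GAS). Class I molecules, a heavy chain bound to beta-2 microglobulin, display peptides that the TAP transporter brings into the endoplasmic reticulum, and neurons are known for low class I levels at rest.

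Counted reads per library ranged from 6411105 to 8757992, at which 3 reads correspond to 0.343 to 0.468 CPM, the usual read count normalised to library size. Levels below are CPM in libraries scaled by TMM factors, in the order of replicates 1, 2 and 3, and a gene is said to have risen or fallen only where edgeR's quasi-likelihood test gave a Benjamini-Hochberg adjusted p under 0.05 over all 12664 genes tested. In that test 40.3% of all genes were higher and 38.6% lower in dexamethasone cells (78.9% together), so a call by itself sets a gene apart from few others. All 13 catecholaminergic and neuronal markers looked at were detected, of which 8 rose, 4 fell and 1 was not called in dexamethasone cells. The granule and synaptic genes Chgb, Scg2 and Syt1 rose 9.73-fold, 8.11-fold and 2.69-fold, while Dbh, the dopamine beta-hydroxylase gene, was 13.2-fold lower, from 165 ± 3.07 to 12.5 ± 0.354 CPM (SD, n = 3), and Tubb3 and Hand2 fell, with log2 fold changes of -0.32 and -0.30. All 7 glucocorticoid-induced genes looked at rose, among them Tsc22d3, Ddit4 and Fkbp5, 6.15-fold, 4.53-fold and 3.82-fold.

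Of the 45 genes, 28 rose, 2 fell, 3 were tested without a call and 12 had too few reads to test. The rises and falls were 84.8% and 6.06% of the 33 tested genes, against 40.3% and 38.6% of all genes tested. The 6 presentation genes all rose, by 1.34-fold to 7.13-fold. Of the 29 antiviral genes 15 rose, 1 fell, 2 were not called and 11 were not tested, and several of the best known interferon-stimulated genes (Ifit1, Ifit3, Gbp2, Oas1a) stayed at or near 0 reads in both groups. Of the 10 signalling genes 7 rose, 1 fell, 1 was not called and 1 was not tested. A fitted rise of at least 2-fold was found for 2, 10 and 5 genes of the signalling, antiviral and presentation classes, where 17.8% of all tested genes showed one. The median log2 fold change was 0.65, 1.17 and 1.74 over the 9, 18 and 6 tested genes of these classes, and 0.02 over all tested genes. All 3 dexamethasone libraries lay above all undifferentiated ones for 28 of the 33 tested genes and below them for 2, against 41.0% and 38.9% of all genes tested. These counts and medians describe tested genes only, from a list chosen with earlier results known. Oasl2, Usp18, Parp14 and Tap1 passed the filter through the dexamethasone libraries alone, which favours a rise without fixing it. Without these 4, the rises of at least 2-fold number 2, 7 and 4, and the dexamethasone libraries lay above for 24 of 29 genes. The medians above include these genes. Oasl2, Usp18 and Parp14, with fitted log2 fold changes of 6.44, 2.48 and 4.37, raise the antiviral median.

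**Figure D1:**
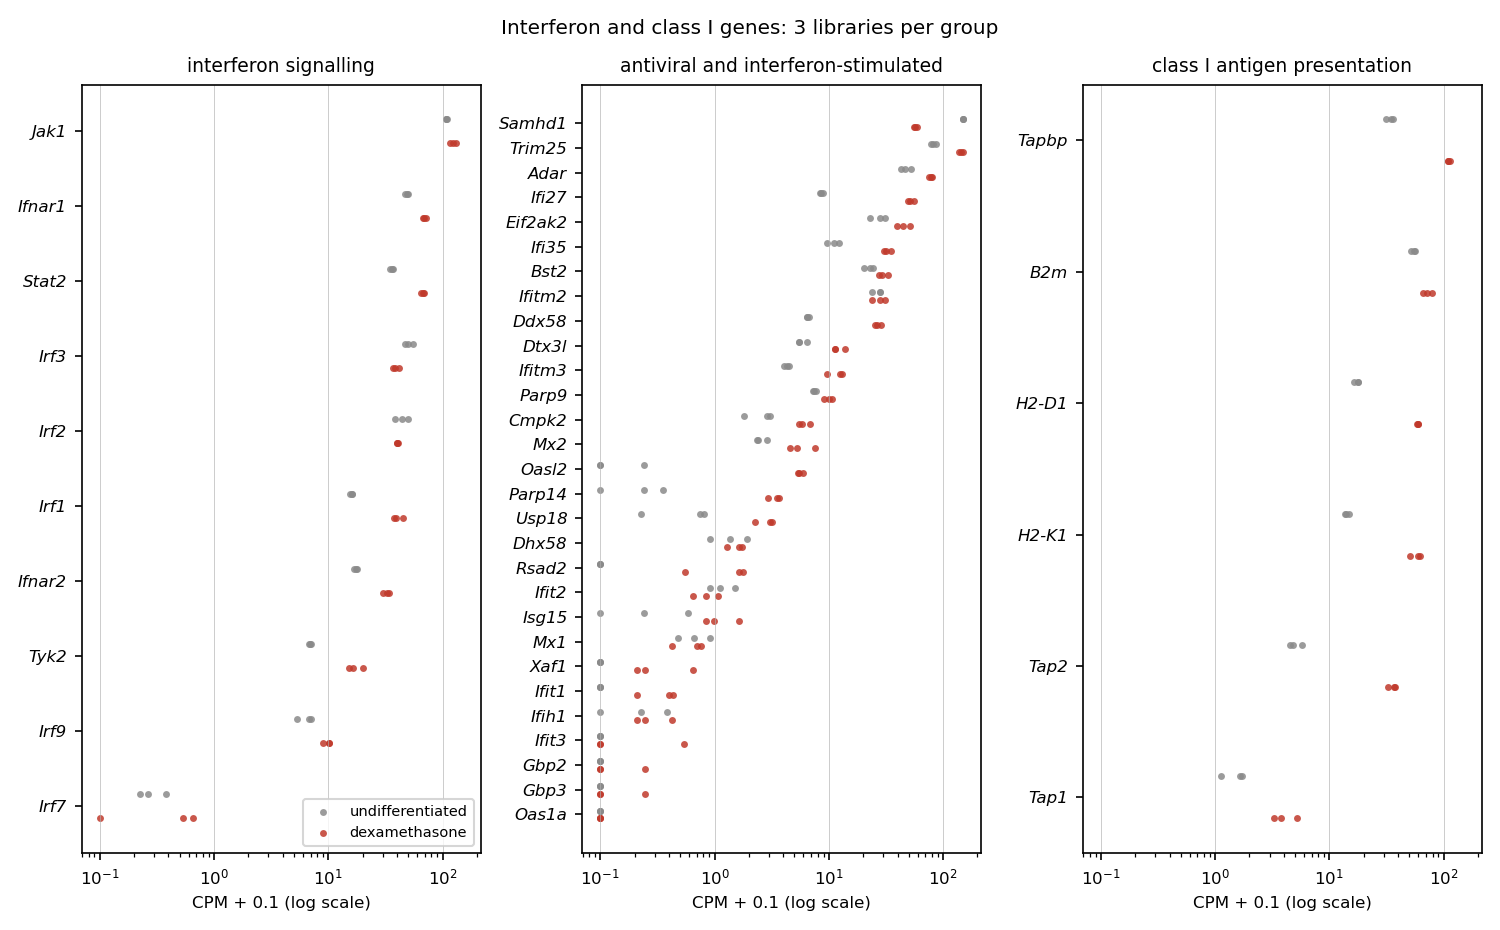
Level of each of the 45 genes in every library, as CPM + 0.1 on a log axis, with 3 undifferentiated libraries in grey and 3 dexamethasone libraries in red, in 3 panels by role. All 6 presentation genes have red points above all grey points, while 9 genes, among them Oas1a and Gbp2, stay under 1 CPM in both groups.

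The sequences before the start of transcription show which members carry the letters that interferon-activated factors are known to bind, and they are printed for members that rose (Irf1, Stat2, B2m, Bst2), a member that was not called (Ifitm2) and members with too few reads to test (Isg15, Ifit1, Rsad2). RefSeq promoters (GRCm38.p6, 250 bases before to 50 after an annotated start) were found for 37 of the 45 genes. The ISRE was searched as GAAA, 2 bases of any kind and GAAA on either strand (TTTC and TTTC on the other), and the GAS as TTCNNNGAA, which reads the same on both strands. Matches may overlap: in Bst2 and Ifitm3 an ISRE match shares bases with a GAS match. Stretches are written 5′ to 3′ along the gene's own strand with the matches in capitals.
Irf1, GAS, chr11:53769904-53769952, plus strand: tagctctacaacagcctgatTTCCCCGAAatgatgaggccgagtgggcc
Stat2, ISRE, chr10:128270256-128270305, plus strand: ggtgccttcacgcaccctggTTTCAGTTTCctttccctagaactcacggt
B2m, ISRE, chr2:122147528-122147577, plus strand: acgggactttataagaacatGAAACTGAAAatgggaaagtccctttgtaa
Bst2, ISRE, chr8:71537567-71537622, minus strand: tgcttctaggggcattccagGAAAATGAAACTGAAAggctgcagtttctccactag
Ifitm2, ISRE, chr7:140955978-140956027, minus strand: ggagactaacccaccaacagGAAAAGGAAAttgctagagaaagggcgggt
Isg15, ISRE, chr4:156200855-156200916, minus strand: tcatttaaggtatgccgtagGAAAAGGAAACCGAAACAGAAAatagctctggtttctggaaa
Ifit1, ISRE, chr19:34640765-34640833, plus strand: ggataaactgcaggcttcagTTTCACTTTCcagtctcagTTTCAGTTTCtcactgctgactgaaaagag
Rsad2, ISRE, chr12:26456543-26456592, minus strand: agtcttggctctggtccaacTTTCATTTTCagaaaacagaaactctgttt

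Of the 37 genes with a promoter, 16 (43.2%) held an ISRE match, against 3.99% of 27025 genes in the same table. Of these 16, 6 rose, 2 were not called and 8 had too few reads to test. Of the 21 without a match, 16 rose, 2 fell and 3 were not tested. Isg15, with 3 overlapping matches, and Ifit1, with 2, were among those not tested, while Stat2 and B2m, each with 1, rose. A GAS match was found in 12 genes (32.4%, against 9.55% of all genes), of which 8 rose, 1 fell, 1 was not called and 2 were not tested. Of all genes tested, 40.3% rose and 38.6% fell. Genes with and without a match differ in how many were tested, so their counts of rises cannot be compared directly. The glucocorticoid response element, searched as GNACA, 3 bases of any kind and TGTNC, was found in none of the 37 promoters and in 0.537% of all genes, which says only that these letters are not in these windows. A match is a run of letters and not a measured binding site.

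**Figure D2:**
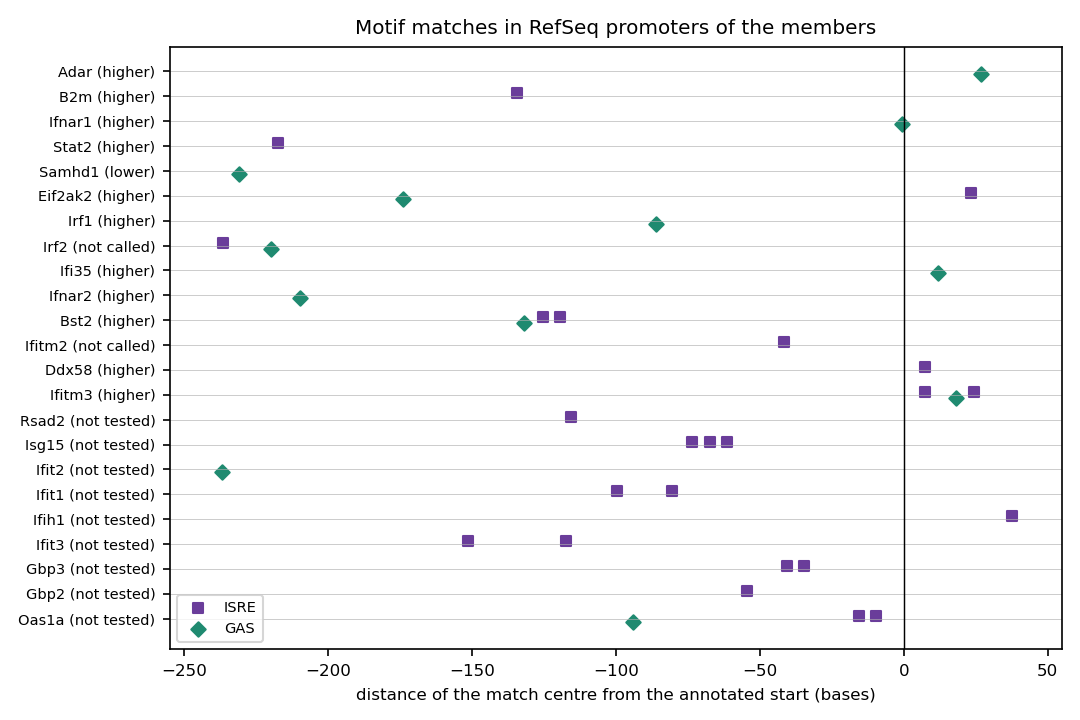
Position of each exact ISRE match (square) and GAS match (diamond) in the RefSeq promoters, in bases from the annotated start, with genes ordered by their mean CPM in dexamethasone cells and their call in brackets. The lower rows, genes with too few reads to test, hold ISRE matches as the upper rows do, with 3 in Isg15.

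The receptor genes and kinases were all higher in dexamethasone cells, the kinase Jak1 by the smallest step. Ifnar1 (ENSMUSG00000022967, chromosome 16, 91485238 to 91507441 in GRCm38), the signal-transducing receptor chain, stood at 49.6, 48.9 and 47.2 CPM in undifferentiated and 67.2, 69.0 and 72.2 CPM in dexamethasone libraries. Its 3 dexamethasone libraries lay above all undifferentiated ones, 1.43-fold apart (log2 fold change 0.51, SE 0.068, edgeR adjusted p = 1.23e-07). Ifnar2 (ENSMUSG00000022971, chromosome 16, 91372783 to 91405589), the chain that binds interferon first with high affinity, went from 17.2, 16.8 and 17.9 to 29.8, 32.4 and 34.2 CPM, 1.85-fold higher (edgeR adjusted p = 4.57e-09). Of its exon bases, 9.46% are shared with a gene model on the same strand, Gm21970, and reads there were not assigned. Tyk2, the kinase held by IFNAR1, had 6.78, 6.63 and 6.98 CPM in undifferentiated and 16.5, 19.9 and 15.2 CPM in dexamethasone libraries. That rise was 2.55-fold (log2 fold change 1.35 ± 0.150 SE, edgeR adjusted p = 4.73e-09), with no overlap of the groups. Jak1, the kinase shared by many cytokine receptors, was the most abundant of the 4 per length in both groups and rose 1.14-fold, from 110.0, 108 and 108 to 131, 122 and 116 CPM (edgeR adjusted p = 0.00467). This small rise was not called in a test against a fold of 1.5 (adjusted p = 1), and neither was that of Ifnar1.

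Stat2 and Irf9, whose products act together at the ISRE, both rose. Stat2 (ENSMUSG00000040033, chromosome 10, 128270559 to 128292849), the component that carries the activation domain, went from 36.5, 36.2 and 34.4 to 69.1, 67.8 and 64.2 CPM, 1.88-fold higher (log2 fold change 0.91 ± 0.072 SE, edgeR adjusted p = 5.97e-12). Irf9, its DNA-binding partner, stood at 6.93, 5.23 and 6.66 CPM in undifferentiated and 10.1, 10.1 and 8.93 CPM in dexamethasone libraries, 1.57-fold higher (edgeR adjusted p = 0.00115). Per kilobase of exon, Stat2 had 6.02 CPM in undifferentiated and 11.3 CPM in dexamethasone cells, above Irf9 with 1.16 and 1.80 CPM.

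The interferon regulatory factors went separate ways. Irf1 (ENSMUSG00000018899, chromosome 11, 53770014 to 53778374), an activator of class I and antiviral genes whose promoter holds the GAS shown above, went from 15.97, 15.5 and 16.1 to 44.8, 37.6 and 39.3 CPM. It rose 2.56-fold (log2 fold change 1.36 ± 0.099 SE, edgeR adjusted p = 9.28e-13), and all 3 dexamethasone libraries lay above the others. Irf3, which is activated by viral nucleic acid sensors, fell from 54.7, 49.3 and 47.1 to 36.9, 41.2 and 38.6 CPM, 1.30-fold lower (edgeR adjusted p = 0.000119). Irf2, known as an antagonist of Irf1, was at 38.4, 49.3 and 43.8 CPM and at 39.5, 41.0 and 39.8 CPM, with overlapping groups and no call (log2 fold change -0.13 ± 0.085 SE, edgeR adjusted p = 0.154). Its lowest undifferentiated library was replicate 1, and without it Irf2 was called lower (log2 fold change -0.22, edgeR adjusted p = 0.0236). Irf7, the factor that amplifies interferon production, had 4 reads over the undifferentiated and 9 over the dexamethasone libraries and was not tested.

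No interferon gene was measurably expressed in either group. Of 21 interferon genes looked at, 19 had 0 reads in all 6 libraries, Ifnb1 among them, and Ifnz and Ifng had 1 read each. A count of 0 allows up to 0.468 CPM in the shallowest library, so low transcription would not be detectable at this depth. Of 24 other genes of interferon signalling, 20 were tested, with a median log2 fold change of 0.50. Of these 20, 12 rose (60%) and 3 fell (15%), against 40.3% and 38.6% of all genes tested. Jak2, a kinase of the interferon gamma receptor, rose from 28.1 ± 3.42 to 69.1 ± 4.82 CPM (SD, n = 3), Il10rb, a chain of the lambda interferon receptor, 2.43-fold, Stat3 1.86-fold and the receptor chain Ifngr2 1.57-fold. The phosphatase gene Ptpn2, a brake on JAK kinases, fell from 46.7 ± 4.32 to 26.7 ± 3.35 CPM (SD, n = 3), and Pias2 fell 1.14-fold. Socs1, the feedback inhibitor of JAK kinases, was not called (log2 fold change 0.50, edgeR adjusted p = 0.0591).

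Among sensors of viral RNA, Ddx58 rose, while Ifih1 was too low to test and Dhx58 was not called. Ddx58 (ENSMUSG00000040296, chromosome 4, 40203773 to 40239828), which encodes the RNA sensor RIG-I, went from 6.36, 6.63 and 6.33 to 28.5, 25.5 and 26.2 CPM. The libraries of each group lay close together and far from the other group, 4.14-fold apart (log2 fold change 2.05 ± 0.127 SE, edgeR adjusted p = 2.57e-14). Ifih1, the gene of the sensor MDA5, had 3 and 5 reads over the undifferentiated and dexamethasone libraries. Dhx58, a regulator of both sensors, was at 1.84, 1.27 and 0.812 CPM and at 1.55, 1.64 and 1.19 CPM (log2 fold change 0.16 ± 0.368 SE, edgeR adjusted p = 0.701), a spread that leaves changes of this size undetectable. Trim25, a ubiquitin ligase known to act on RIG-I, was well expressed in both groups, with 78.7, 82.2 and 87.0 CPM in undifferentiated and 143, 148 and 137 CPM in dexamethasone libraries. It rose 1.73-fold (log2 fold change 0.79 ± 0.059 SE, edgeR adjusted p = 1.51e-12).

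Of the genes of enzymes that act with double-stranded RNA, Eif2ak2, Adar and Oasl2 rose and Oas1a was not detected. Eif2ak2, the kinase PKR that halts translation, went from 23.04, 30.7 and 28.1 to 51.2, 44.5 and 39.8 CPM (1.66-fold, edgeR adjusted p = 2.54e-07; adjusted p = 0.0588 in a test against a fold of 1.5). Adar, which edits adenosine to inosine in double-stranded RNA, went from 46.2, 52.5 and 42.4 to 74.8, 78.3 and 79.7 CPM (1.64-fold, edgeR adjusted p = 1.3e-09). Both genes were well counted in undifferentiated cells and their groups did not overlap. Oasl2, an oligoadenylate synthetase-like gene, had 1 read in the 3 undifferentiated libraries and 5.31, 5.89 and 5.36 CPM in the dexamethasone libraries. Its scaled read ratio was 117-fold, with a 95% counting interval of 20.6 to 4644. Its fitted log2 fold change rests on that read and moved from 6.44 to 8.43 without undifferentiated replicate 1. Oas1a, a synthetase that activates the ribonuclease RNase L, had no read in any library.

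Of the small membrane proteins that block viral entry or release, 2 of 3 rose. Ifitm3, which stops virus fusion, went from 4.38, 3.95 and 4.22 to 12.8, 9.48 and 12.4 CPM (2.75-fold, edgeR adjusted p = 5.46e-08). Its neighbour Ifitm2 was at 28.1, 28.0 and 23.7 CPM and at 31.0, 27.9 and 23.97 CPM, with overlapping groups and no call (log2 fold change 0.06 ± 0.102 SE, edgeR adjusted p = 0.605). Of the exon bases of Ifitm2, 40.9% are shared with the gene model Gm45717 on the same strand, where reads were not assigned, and Ifitm genes resemble each other, so both values are uncertain. Bst2, tetherin, which holds budding virus at the cell surface, went from 24.2, 20.3 and 22.9 to 27.5, 29.1 and 32.8 CPM. That was a 1.32-fold rise without overlap of the groups (edgeR adjusted p = 0.000651), and it was not called in a test against a fold of 1.5 (adjusted p = 1).

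Samhd1, whose enzyme destroys deoxynucleotides and so starves retroviruses and limits the nucleotide pool, was the antiviral gene that fell. It went from 149, 149 and 150.2 CPM in undifferentiated to 59.5, 56.2 and 55.1 CPM in dexamethasone libraries (ENSMUSG00000027639, chromosome 2, 157097533 to 157135265). The drop was 2.62-fold (log2 fold change -1.39 ± 0.059 SE, edgeR adjusted p = 5.85e-18), where 12.2% of all tested genes fell at least 2-fold. Per kilobase of exon it had 16.3 CPM in undifferentiated cells, where among the 45 genes only B2m, Ifitm2 and Bst2 were higher, with 62.9, 40.6 and 24.9 CPM. In dexamethasone cells it was at 6.22 CPM per kilobase. Cmpk2, a mitochondrial nucleotide kinase, was low and rose from 1.70, 2.93 and 2.76 to 5.43, 5.78 and 6.70 CPM (2.39-fold, edgeR adjusted p = 3.29e-05). Rsad2, the antiviral enzyme viperin, had no undifferentiated read and 1.66, 1.53 and 0.447 CPM in dexamethasone libraries, at least 9.02-fold higher when its undifferentiated total is set to 3 reads. It was too low to test by the filter used. With no filter it was called higher (edgeR adjusted p = 7.78e-08). Ifi27 had an edgeR adjusted p of 3.19e-115 with no filter against 1.28e-18 in the main fit, so p-values of these fits are not comparable.

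The ISG15 system was weakly expressed. Isg15, a ubiquitin-like protein that is attached to other proteins and that many cells make in abundance after interferon, had 4 reads over the undifferentiated and 27 over the dexamethasone libraries, or 0.141, 0 and 0.487 against 0.886, 1.53 and 0.745 CPM. All 3 dexamethasone libraries lay above the others, but the gene was not tested. With no filter, where p-values are not comparable with those of the main fit, it was called higher (edgeR adjusted p = 0.0014). Usp18, which removes ISG15 and also silences IFNAR2, went from 0.707, 0.127 and 0.649 to 3.10, 2.18 and 2.98 CPM (5.60-fold, edgeR adjusted p = 7.42e-06). Because Usp18 passed the filter through the dexamethasone libraries alone, its p-value is no independent support for the rise.

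Of the antiviral GTPase and Ifit genes, Mx2 rose and the others had few reads. Mx2, of the dynamin family of GTPases, is annotated as a polymorphic pseudogene, so its RNA does not imply a working protein. It rose from 2.26, 2.29 and 2.76 to 7.42, 5.12 and 4.47 CPM (2.37-fold, edgeR adjusted p = 6.86e-05). Mx1 next to it, which is defective in many laboratory strains, had 12 and 13 reads over the groups and was not tested. Gbp2 and Gbp3, guanylate-binding proteins that interferon gamma strongly induces, had 0 undifferentiated reads and 1 dexamethasone read each. Ifit1, Ifit3 and Xaf1 had 0 undifferentiated reads and 6, 4 and 7 dexamethasone reads. Ifit2, which inhibits translation of viral RNA, was at 1.41, 1.02 and 0.812 CPM and at 0.554, 0.981 and 0.745 CPM, with overlapping groups, and was not tested. With no filter Xaf1 was called higher (edgeR adjusted p = 0.0392) and Ifit1, Ifit2 and Ifit3 were not. The Xaf1 call rests on 7 reads, 5 of them in dexamethasone replicate 2, and its p-value is not comparable with those of the main fit.

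Ifi27 and Ifi35 rose clearly. Ifi27 (ENSMUSG00000064215, chromosome 12, 103434211 to 103440239), a small membrane protein gene induced by type I interferon, went from 8.20, 8.41 and 8.77 to 55.8, 51.6 and 49.4 CPM. This was the largest fold among antiviral genes with more than 10 undifferentiated reads, 6.196-fold (log2 fold change 2.63 ± 0.104 SE, edgeR adjusted p = 1.28e-18). Ifi35, a cytosolic leucine zipper protein, went from 12.2, 9.56 and 11.04 to 31.3, 35.0 and 30.5 CPM, 2.98-fold higher (edgeR adjusted p = 7.08e-13).

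The ADP-ribosyltransferase family genes Parp9 and Parp14, and Dtx3l, which encodes the partner of PARP9, lie within 139.7 kb of chromosome 16 and rose by different amounts. Parp14, an antiviral ADP-ribosyltransferase, had 3 undifferentiated reads and 3.54, 2.83 and 3.42 CPM in dexamethasone libraries, a scaled read ratio of 22.8 (95% counting interval 7.54 to 113). Without undifferentiated replicate 2, which held most of those reads, its fitted log2 fold change moved from 4.37 to 5.15. Dtx3l, a ubiquitin ligase, rose from 5.37, 5.35 and 6.33 to 13.8, 11.1 and 11.3 CPM (2.14-fold, edgeR adjusted p = 1.22e-06). Parp9, its partner, rose from 7.21, 7.26 and 7.63 to 10.5, 9.05 and 9.98 CPM (log2 fold change 0.42 ± 0.159 SE, edgeR adjusted p = 0.0186). That call was lost without dexamethasone replicate 1 (log2 fold change 0.36, edgeR adjusted p = 0.0681) and with DESeq2 (adjusted p = 0.0721).

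**Figure D3:**
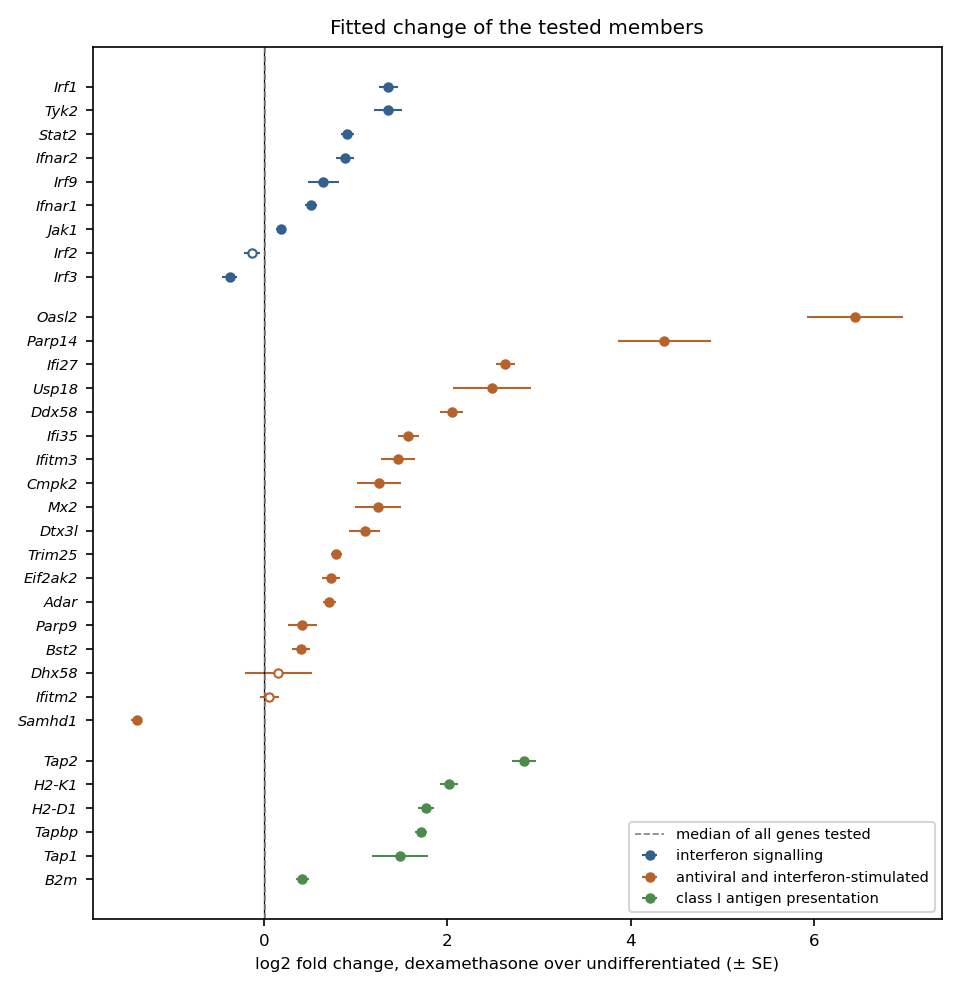
Fitted log2 fold change ± SE of the 33 tested genes, by role, with filled points for called genes, open points for genes not called and a dashed line at the median of all genes tested (0.02). All 6 presentation genes lie right of 0, Samhd1 lies far left, and the values of Oasl2 and Parp14 rest on 1 and 3 undifferentiated reads and depend on the prior count.

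Both classical class I heavy chain genes rose, by larger folds than the light chain gene B2m. H2-K1 (ENSMUSG00000061232, chromosome 17, 33996017 to 34000347) went from 14.8, 13.9 and 13.5 to 51.2, 59.3 and 62.1 CPM, 4.06-fold higher (log2 fold change 2.02 ± 0.098 SE, edgeR adjusted p = 1.27e-16). H2-D1 (ENSMUSG00000073411, chromosome 17, 35262730 to 35267499) went from 17.7, 17.7 and 16.2 to 57.9, 59.5 and 59.3 CPM, 3.41-fold higher (log2 fold change 1.77 ± 0.085 SE, edgeR adjusted p = 9.88e-17). The groups lay far apart for both. Class I genes are near-identical copies of each other and differ between C57BL/6 and DBA/2, the parents of the line, while the reference is of C57BL/6, so some reads may be missing or shared and their part in these values was not tested.

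B2m (ENSMUSG00000060802, chromosome 2, 122147686 to 122153083), the light chain shared by all class I molecules, went from 51.4, 55.6 and 55.4 to 79.2, 71.7 and 65.5 CPM. It rose 1.34-fold (log2 fold change 0.42 ± 0.073 SE, edgeR adjusted p = 9.09e-06; adjusted p = 1 in a test against a fold of 1.5). Per kilobase of exon B2m was the most abundant of the 45 genes in both groups, with 62.9 and 83.9 CPM. The summed level of H2-D1 and H2-K1 per length, divided by that of B2m, was 0.199, 0.179 and 0.169 in undifferentiated and 0.433, 0.519 and 0.579 in dexamethasone libraries. All 3 dexamethasone ratios exceeded all undifferentiated ones (exact two-sided permutation p = 0.1, the smallest that 3 against 3 libraries can give). The H2-K1 to H2-D1 ratio was 0.718 ± 0.0261 and 0.857 ± 0.0738 (SD, n = 3; exact permutation p = 0.1).

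**Figure D4:**
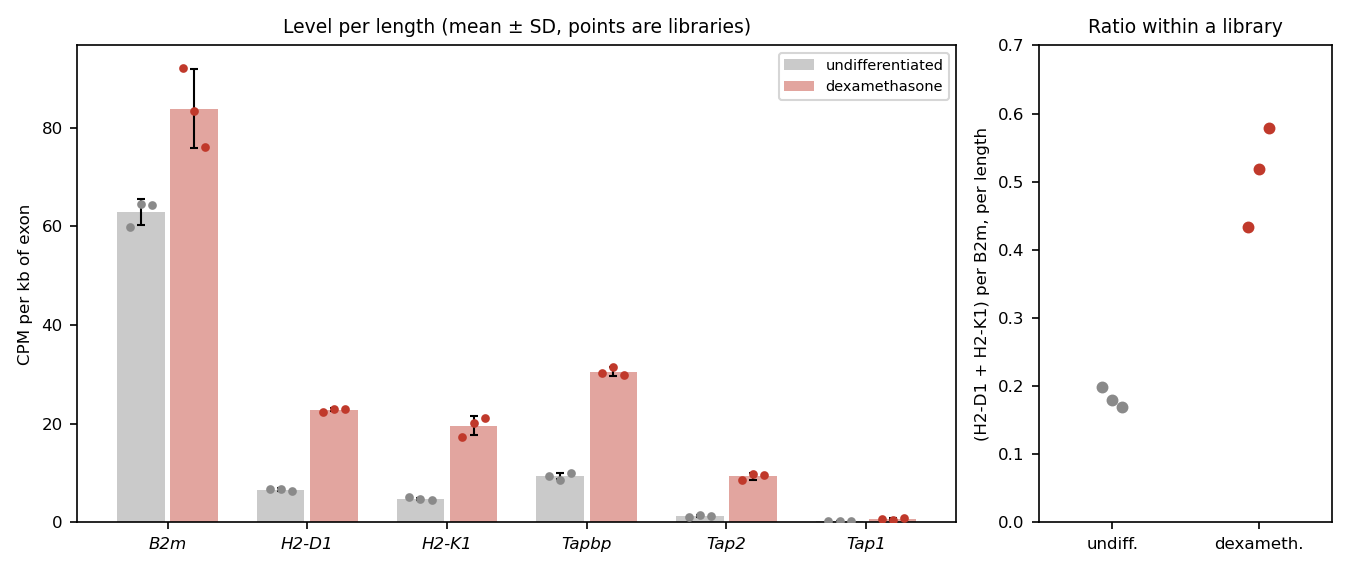
Left, levels of the 6 presentation genes as CPM per kilobase of exon (bars, mean; error bars, SD over 3 libraries; points, libraries). Right, the summed heavy chain level per B2m in each library. B2m is highest in both groups, and the ratio lies between 0.169 and 0.199 in undifferentiated and between 0.433 and 0.579 in dexamethasone libraries.

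The genes that load peptides also rose, Tap2 by the largest fold of this class. Tap2 (ENSMUSG00000024339, chromosome 17, 34203527 to 34216321), one chain of the peptide transporter, went from 4.38, 5.61 and 4.71 to 32.4, 37.2 and 36.3 CPM, 7.13-fold higher (log2 fold change 2.83 ± 0.131 SE, edgeR adjusted p = 3.89e-17). Tap1 (ENSMUSG00000037321, chromosome 17, 34187553 to 34197225), the other chain, was low, with 1.55, 1.02 and 1.62 CPM in undifferentiated and 3.65, 3.16 and 5.06 CPM in dexamethasone libraries (2.79-fold, edgeR adjusted p = 8.07e-05). Tap1 passed the filter only through the dexamethasone libraries, with 2 undifferentiated libraries over the minimum, so its p-value is no independent support for the rise. The working transporter needs both chains. Per length the Tap1 to Tap2 ratio was 0.245, 0.126 and 0.238 in undifferentiated and 0.0778, 0.0587 and 0.0962 in dexamethasone libraries, with no overlap (exact two-sided permutation p = 0.1). Tapbp, tapasin, which bridges the transporter and the class I molecule, went from 34.3, 31.5 and 36.2 to 109.7, 114 and 109 CPM (ENSMUSG00000024308, chromosome 17, 33915899 to 33929292). Its rise was 3.28-fold (log2 fold change 1.71 ± 0.070 SE, edgeR adjusted p = 2.4e-18).

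Other genes of class I presentation moved both ways. Of 29 looked at, 15 were tested, with a median log2 fold change of 0.58. Of these 15, 9 rose (60%) and 4 fell (26.7%), against 40.3% and 38.6% of all genes tested. Psmb8, an immunoproteasome subunit whose gene lies between Tap1 and Tap2 (34197721 to 34201454), rose from 1.09 ± 0.0882 to 7.75 ± 1.54 CPM (SD, n = 3; 6.91-fold), while Psmb10, another such subunit, fell 1.36-fold. Class I-like genes with other tasks rose by large folds: Mr1, which presents vitamin metabolites, from 0.897 ± 0.541 to 20.3 ± 1.44 CPM, Hfe, which senses iron, from 1.34 ± 0.739 to 18.4 ± 1.37 CPM, and Fcgrt, the neonatal Fc receptor, from 2.11 ± 0.509 to 24.99 ± 1.13 CPM (SD, n = 3). The undifferentiated means of Mr1 and Psmb8 were under the filter's minimum of 1.28 CPM, so they could not have passed through those libraries alone. That favours a rise, and the shares and median of this list are not free of it. The chaperone genes Calr, Pdia3 and Canx, which serve many glycoproteins besides class I, fell 1.45-fold, 1.34-fold and 1.22-fold. Nlrc5, the class I transactivator, had 0 reads in undifferentiated and 6 in dexamethasone cells.

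Further interferon-stimulated and sensing genes were looked at beside the 45. Of 81 other interferon-stimulated genes 26 were tested (median log2 fold change 0.91), and 25 had 0 reads in every library. Of the 26 tested, 21 rose (80.8%) and 3 fell (11.5%), against 40.3% and 38.6% of all genes tested. These shares and the median are not free of the filter. Some genes, such as Irgm2, were under its minimum of 1.28 CPM in undifferentiated cells and passed only through the dexamethasone libraries, which favours a rise. Lgals3bp, a secreted glycoprotein, rose from 6.81 ± 0.848 to 93.3 ± 3.94 CPM, Parp10 from 13.7 ± 1.84 to 72.2 ± 2.38 CPM and Trim56 from 25.9 ± 3.97 to 88.0 ± 5.03 CPM (SD, n = 3). Irgm2, an immunity-related GTPase, rose from 0.175 ± 0.193 to 13.7 ± 0.398 CPM (SD, n = 3), but its gene model and that of Igtp cover the same stretch of chromosome 11, so its value is uncertain. Daxx and Plscr1 fell, with log2 fold changes of -0.58 and -0.57. Of 22 genes of nucleic acid sensing 16 were tested, with a median log2 fold change of 0.10. Of these 16, 7 rose (43.8%) and 6 fell (37.5%), near the shares of all genes tested (40.3% and 38.6%). Tmem173, known as STING, rose 3.13-fold, Ticam1 2.54-fold and Aim2 1.51-fold, and Tax1bp1 1.18-fold. The ribonuclease H2 genes Rnaseh2c, Rnaseh2b and Rnaseh2a fell 5.89-fold, 3.86-fold and 1.70-fold and the kinase gene Tbk1 1.58-fold. Cgas, the cytosolic DNA sensor, fell 5.47-fold, with 98 reads over the undifferentiated and 21 over the dexamethasone libraries.

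Markers of other cell types were checked in the same libraries. The 14 markers of blood and microglial cells summed to between 0.325 and 1.13 CPM in undifferentiated and between 0.436 and 1.04 CPM in dexamethasone libraries, and 7 of them were at 0 reads, among them Ptprc, Itgam, Lyz2 and Cd3e. Of 7 class II genes H2-Aa, H2-Ab1, H2-Eb1 and Ciita were at 0 reads, while Cd74, the invariant chain, rose from 0.202 ± 0.177 to 5.71 ± 1.89 CPM and H2-DMa from 1.49 ± 0.729 to 8.29 ± 1.43 CPM (SD, n = 3). Cd74 was under the filter's minimum of 1.28 CPM in undifferentiated cells and passed only through the dexamethasone libraries, which favours a rise. The 7 fibroblast markers summed to between 10.1 and 13.7 CPM in undifferentiated and between 21.6 and 23.7 CPM in dexamethasone libraries, with Col3a1 at 0. Only 3 of the 7 were tested, of which 2 rose, Dcn by 2.12-fold, and 1 was not called (log2 fold change -0.74). The 5 endothelial markers summed to between 20.8 and 24.5 CPM and between 39.4 and 43.1 CPM. Most of that was Pecam1, at 19.5 and 33.1 CPM. Pecam1 rose 1.69-fold and Vwf 2.47-fold, while the other 3 markers were too low to test. The 8 astrocyte and oligodendrocyte markers summed to between 3.96 and 5.19 CPM and between 3.57 and 5.78 CPM, with Mog and Sox10 at 0. The part of other cells in the results above was not tested, and in bulk RNA fewer cells of a type and less RNA per cell cannot be told apart.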

How the data were processed

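Raw read counts per gene were used as deposited. The authors ran featureCounts 1.6.4, per the file headers, on the exons of Ensembl release 96 (GRCm38), summed by gene, with strand setting 1 and no option for reads that map to several places or overlap several genes. HISAT2 2.2.0 and Trim Galore 0.6.4 are named, without their roles, per the submitters' processing notes. All 55536 identifiers had a GENCODE M21 name.

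Groups and replicate numbers came from sample titles. Genes were filtered with filterByExpr (minimum count 10, minimum total 15), which kept 12664 genes with 99.8% of reads, scaled with TMM and tested with edgeR 4.0.16 (glmQLFit, glmQLFTest; R 4.3.3) with group as the only term. The standard error is the log2 fold change divided by the square root of F. Where a group had 0 reads, the fold is a lower bound computed with 3 reads in its place, and for totals of 1 to 3 an exact 95% binomial interval was used, which covers counting error only. CPM per kilobase used the exon length in the files. Alternatives tried were upper quartile factors, RLE factors, library totals, other filters, DESeq2 1.42.0, limma 3.58.1 voom, the replicate number as a block, an adjusted p under 0.01, a test against a fold of 1.5, and each library left out.

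The members and lists were chosen with earlier results of these data known. Members whose mean reached 1 CPM in either group are given in every library; from the other lists, up to 4 called genes per direction (3 for cell type markers and identity) with at least 5 CPM in a group, groups that do not overlap and the smallest adjusted p are named, besides Ifnb1. Of the genes this rule named, 1 is left out of the text. Socs1, Nlrc5, Cgas, Ifnz, Ifng and Igtp, and the marker genes at 0 reads, were named after their values were seen. On simulated counts for this comparison (200 of 12664 genes changed) the test recovered 56% of genes changed 1.25-fold, 78% at 1.5-fold, 96% at 2-fold and 98% at 4-fold, with 2.38% false among 168 calls. Every simulated gene had the same dispersion, and far fewer genes changed than the 78.9% called in the data. These shares may therefore not hold for the data. Within groups, libraries varied beyond counting noise, with chi-square over its degrees of freedom between 1.65 and 3.19.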

Additional observations from a re-analysis of the deposited data

How the results depend on the processing

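No called change of the 45 genes turned direction under the 16 alternatives. The adjusted p under 0.01 and the test against a fold of 1.5 keep the fold changes of the main fit, so they could not turn one. Against a fold of 1.5, calls over all genes moved from 5106 higher and 4891 lower to 2853 and 2316, and signalling genes from 7 higher and 1 lower to 4 and 0. Fewer genes pass by that test's construction: Ifnar1, Jak1, Irf9, Irf3, Eif2ak2, Bst2, Parp9 and B2m lost their calls there. With single libraries left out, lower signalling genes numbered 1 to 2. Library totals and upper quartile factors raised the median log2 fold change of all genes by 0.125 and 0.102, and called 5802 higher and 4207 lower, and 5692 and 4334. With the replicate number as a block, 5017 genes were higher and 4803 lower over all genes, and among signalling, antiviral and presentation genes 7, 15 and 6 were higher and 1, 1 and 0 lower, as without the block. Same-numbered libraries did not deviate together (correlations -0.0947, 0.0357 and -0.071). With 3 libraries per group this cannot show whether they shared a culture, day or batch. With no filter, 18 antiviral genes were called higher instead of 15, the added ones (Rsad2, Isg15 and Xaf1) on few reads. Depth limits the 12 genes that were not tested.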

Other observations

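Some members are neighbours in the genome, and some of these differed in level or in the size of their change. Of the 45 genes, 9 groups of 2 or 3 lay within 100 kb of the next. In the Ifit group on chromosome 19 (34550694 to 34650009 in GRCm38) Ifit2 had 23 reads over the undifferentiated and 19 over the dexamethasone libraries, and Ifit3 and Ifit1 had 0 and 0 against 4 and 6. On chromosome 12 (26442746 to 26479837) Cmpk2 had 52 and 147 reads while Rsad2, on the opposite strand, had 0 and 32. The receptor genes Ifnar2 and Ifnar1 on chromosome 16 (91372783 to 91507441) rose 1.85-fold and 1.43-fold. On chromosome 17, Tapbp and H2-K1 (33915899 to 34000347) rose 3.28-fold and 4.06-fold, and Tap1 and Tap2 (34187553 to 34216321) 2.79-fold and 7.13-fold.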
